A study of Bos taurus with 4 samples.

Results

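The enzymes that modify drugs and other foreign compounds were followed as 4 gene families, the cytochromes P450 of CYP1 to CYP4 (CYP), the UDP-glucuronosyltransferases (UGT), the glutathione S-transferases (GST) and the sulfotransferases (SULT). Members were taken by the form of the gene symbol alone, a family name followed by its class or subfamily letter and a member number. No filter on reads was used, but members and gene lists were chosen with earlier results of these data known. The symbol rule gave 58 of the 29792 rows in the count tables, on 53 symbols, with 23 CYP, 5 UGT, 18 GST and 12 SULT rows. At least 1 read was present in any library for 54 of the 58 rows, and at least 10 reads for 45. CYP2E1, CYP4A22, GSTO2 and SULT1C2 had no read in any library. A count of 0 does not show that a gene is silent, and 3 reads per library were taken as the floor. CYP1A2, CYP4B1, GSTT2, GSTT4, SULT1D1, SULT1E1, SULT4A1, UGT3A2 and the first of 2 SULT1C4 rows had reads but stayed under 10 in every library.

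Foreign compounds are usually handled in phases. Cytochromes P450, anchored in the endoplasmic reticulum, use electrons from NADPH to oxidise a lipophilic compound, and the transferases of the next phase attach glucuronic acid (UGT), glutathione (GST) or sulfate (SULT) to it, after which transporters export the conjugate. The absorptive cells of the small intestine are a known site of this chemistry beside the liver, and members of the same families also act on fatty acids, bilirubin, steroids, bile acids and vitamins.

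The 4 libraries were 1 each of bovine intestine, bovine muscle and bovine intestinal organoids at passage 5 (P5) and passage 10 (P10), all from Hanwoo cattle over 24 months old. Organoids were grown from crypts of the jejunum in Matrigel with IntestiCult medium and carry epithelium without the connective tissue, vessels and immune cells of the intestine. Neither the number of animals nor whether tissues and organoids shared an animal was given in the sources used here, and no drug was named as a treatment. With 1 library in each group, no difference could be checked against replicates and p-values were not computed. All intervals are 95% intervals for counting error only, and reads without molecular identifiers are not independent molecules.

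QuantSeq reads come from the 3′ end of polyadenylated RNA, so counts were not divided by transcript length, and reads with several alignments were counted. Totals lay between 12917720 reads in muscle and 17776273 in intestine, and the ribosomal RN18S1 row took 23.6% of the muscle reads against 0.264% to 4.81% in the other libraries. Skeletal muscle markers summed to 30170.0 CPM (reads scaled to a common library total) in muscle and to at most 3.21 CPM elsewhere, so the muscle library carried skeletal muscle. Stroma markers (COL3A1, DCN and 4 others) summed to 998 CPM in intestine and to 3.68 CPM in P5 and 0.282 CPM in P10 organoids, and smooth muscle, endothelial and leukocyte markers were likewise far lower in both organoid libraries (1.54 to 15.1 CPM) than in intestine (43.8 to 5173 CPM). Epithelial markers (EPCAM, KRT8, KRT19 and 5 others) summed to 1746 CPM in intestine, 9940 at P5, 9452 at P10 and 22.8 in muscle. The intestine library was thus epithelium mixed with other tissue, and in bulk RNA fewer cells of a type and less RNA per cell cannot be told apart.

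The summed levels of the families differed in direction. CYP summed to 1108 CPM in intestine (interval 1092 to 1123), 1019.5 CPM in P5 organoids (1003 to 1037), 314 CPM in P10 organoids (306 to 322) and 36.9 CPM in muscle (33.8 to 40.4). The P10 level was 3.53-fold lower than intestine (3.43 to 3.64), and 3.53- to 4.21-fold lower over 4 ways of scaling the libraries. UGT summed to 1109 CPM in intestine, 1101 at P5, 464 at P10 and 3.79 in muscle, so that P10 organoids were 2.39-fold below intestine (2.33 to 2.45). SULT summed to 389 CPM in intestine, 414 at P5, 132 at P10 and 34.4 in muscle, and P10 organoids were 2.95-fold below intestine (2.82 to 3.10). In all of these 3 families the P5 sum lay near intestine. The ratios were 0.921 (0.901 to 0.941) for CYP, 0.993 (0.972 to 1.01) for UGT and 1.07 (1.03 to 1.10) for SULT. The SULT ratio changed side with scaling (0.946 to 1.07). The CYP sum joined rows of opposite direction. Of 19 compared CYP rows, 7 were at least 2-fold higher and 10 lower at P5 than in intestine. Of all 17783 compared rows, 24.9% were higher and 20.4% lower. The median log2 difference was -1.31 over the CYP rows and 0.11 over all compared rows.

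GST was the family whose sum was higher at P10. It summed to 1021 CPM in intestine (1006 to 1036), 1257 CPM in P5 organoids (1238 to 1276), 1476 CPM in P10 organoids (1458 to 1494) and 229.7 CPM in muscle (222 to 238). P10 organoids were 1.45-fold above intestine (1.42 to 1.47), and 1.21- to 1.45-fold over the scalings. The second of 2 GSTP1 rows gave 190 CPM of the GST sum in intestine, 448 at P5 and 778 at P10. Of 15 compared GST rows, 3 were at least 2-fold higher and 3 lower at P10 than at P5, with a median log2 difference of -0.04. Of all 16131 compared rows, 16.1% were higher and 15.5% lower. The plot of family totals shows CYP, UGT and SULT lower at P10 than at P5, and GST higher.

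**Figure D1:**
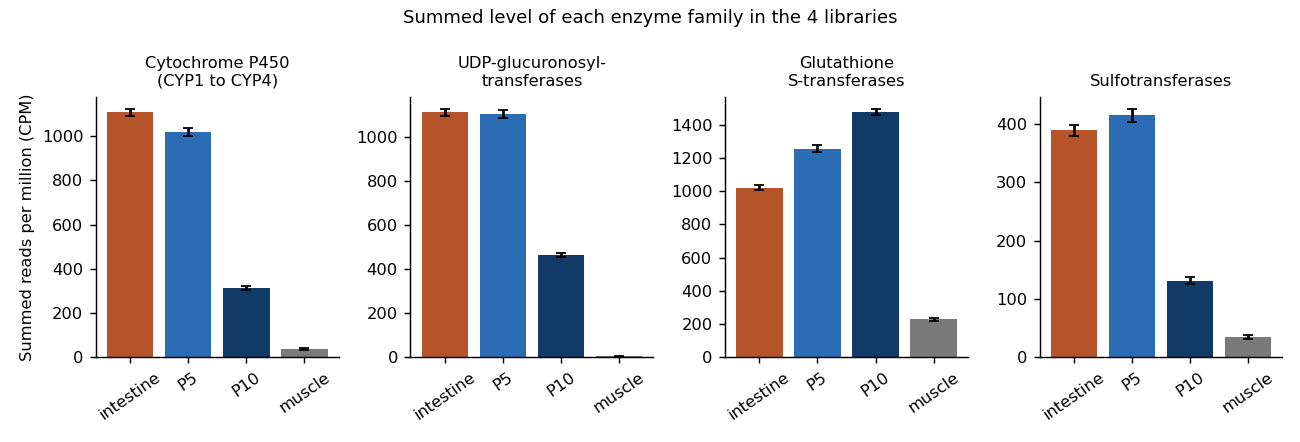
Summed CPM (vertical axis from 0) of the CYP, UGT, GST and SULT rows in intestine, P5 organoids, P10 organoids and muscle, 1 library each. Bars are the sums and error bars 95% Wilson intervals for counting error: P10 organoids have the lowest CYP sum outside muscle (314 CPM) and the highest GST sum of the 4 libraries (1476 CPM).

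Markers of absorptive cells were lower in both organoid libraries than in intestine. The 11 enterocyte markers summed to 34096 CPM in intestine, 4648 at P5, 440 at P10 and 80.4 in muscle. Of the 11, 9 were at least 2-fold lower in P5 and 8 in P10 organoids than in intestine, with medians of -3.60 and -7.23 on the log2 scale, and APOA4 and APOA1 had no read at P10. ANPEP, an enterocyte aminopeptidase, went against the list with 28104 reads at P5, 243 at P10 and 125 in intestine. The whole list had 63211 reads at P5, so the P5 sum rests in large part on ANPEP. The 5 goblet cell markers were all at least 2-fold lower than intestine at both passages, and all 6 proliferation markers at least 2-fold higher. Over all compared rows, 24.9% were higher and 20.4% lower at P5, and 28.0% and 21.6% at P10. The part of these cell types in the differences of the enzyme families was not tested.

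For single rows, the counts of the 4 libraries were quantile-normalised together, and differences are given as log2(value + 1), where a difference of 1 is 2-fold. A row was compared where the higher library of the pair had at least 10 reads. Counts of 3 reads or fewer were taken as 3 reads, and a difference against such a library is a bound, written as "at least" or "at most". P5 organoids had 13 of 45 compared rows at least 2-fold above intestine and 16 at least 2-fold below, where 24.9% and 20.4% of all 17783 compared rows were. The median over the 45 was 0.11 against 0.11 over all compared rows, and -0.28 against -0.08 with TMM. P10 organoids had 9 of 44 rows at least 2-fold above intestine and 21 below, against 28.0% and 21.6% of 17803 rows, with a median of -0.66 against 0.17. Scaling by edgeR's TMM factors or the upper quartile made this 6 above and 26 below, and TMM a median of -1.51 against -0.12, while the share of all rows called was 21.8% above and 31.3% below with TMM. The library with the highest CPM was intestine for 23 of the 45 rows with at least 10 reads, P5 organoids for 14, P10 organoids for 7 and muscle for 1 (CYP2R1). Over all 18818 such rows these shares were 28.7%, 22.8%, 35.2% and 13.3%. Among the 7 highest at P10 were GSTM3, GSTP1 (row 2) and CYP1B1, and among the 23 highest in intestine were 12 of 19 CYP rows.

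**Figure D2:**
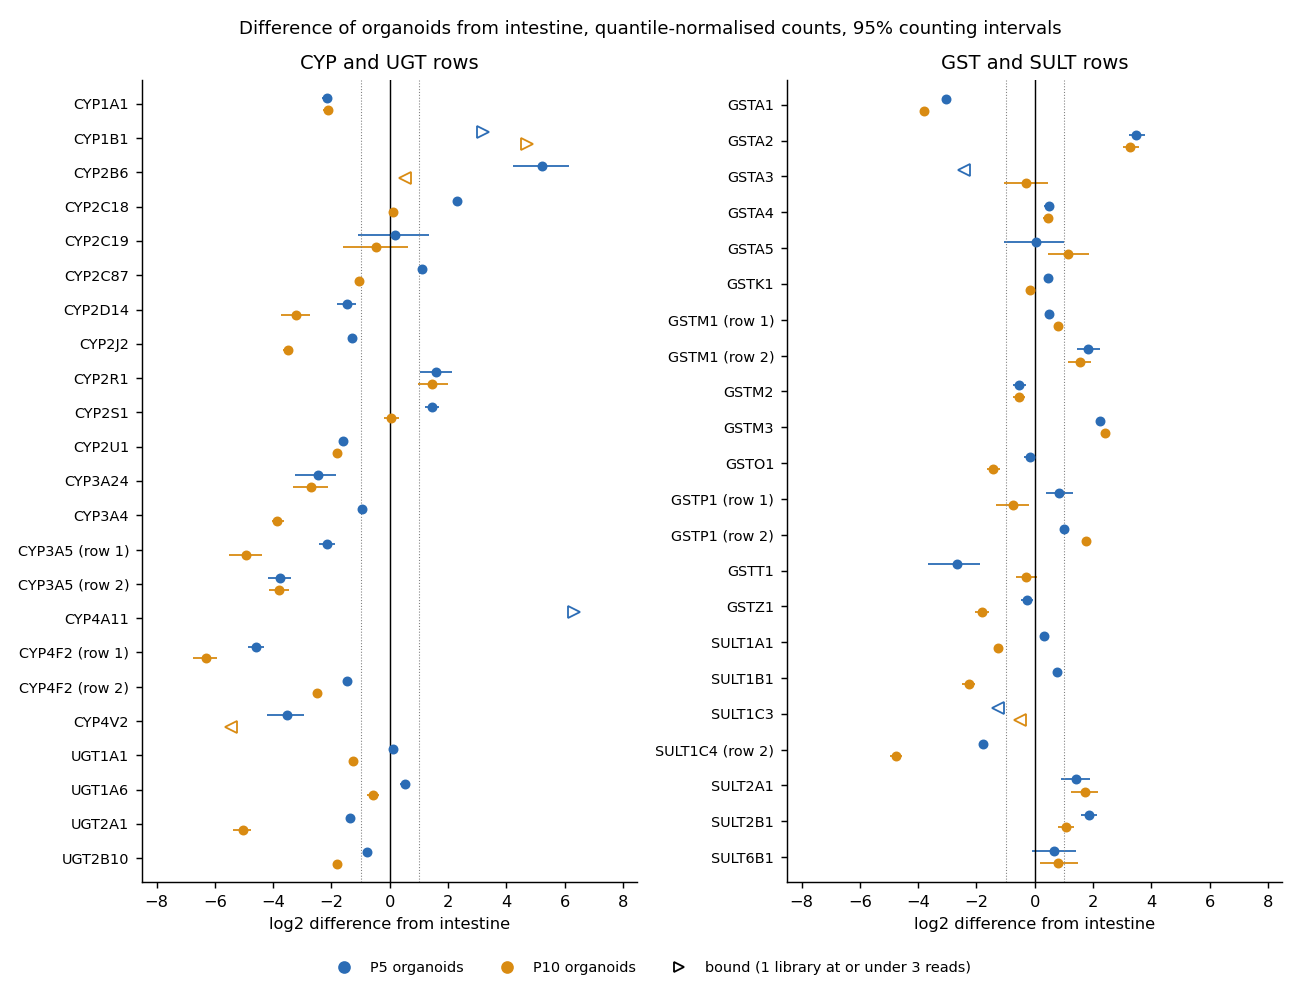
Log2 difference from intestine (horizontal axis) of each row with at least 10 reads in a compared library, for P5 (blue) and P10 organoids (orange), CYP and UGT at the left, GST and SULT at the right. Points are quantile-normalised differences with 95% counting intervals, open triangles are bounds, and dotted lines mark 2-fold: the point of CYP4F2 (row 1) lies furthest left at both passages, and GSTA2 and GSTM3 lie beyond 2 at the right.

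Among the cytochromes P450, the CYP3A subfamily, which oxidises a wide range of drugs and leads in the human intestine, was lower in organoids than in intestine. Its 4 rows summed to 203 CPM in intestine, 81.6 at P5, 13.8 at P10 and 1.32 in muscle. That was 2.49-fold (2.32 to 2.66) below intestine at P5 and 14.7-fold (13.0 to 16.9) at P10. CYP3A4 had 1970 reads in intestine, 924 at P5, 160 at P10 and 8 in muscle, and its differences from intestine were -0.95 at P5 and -3.85 at P10. The rows named CYP3A5 were 2. The first had 695, 127, 16 and 3 reads in intestine, P5, P10 and muscle, with differences of -2.16 and -4.94, and the second 760, 40, 50 and 3, with -3.77 and -3.79. Thus the first row differed by -2.78 between P10 and P5 organoids, while the second was at -0.02 (-0.53 to 0.49). CYP3A24 had 183 reads in intestine, 19 in P5, 18 in P10 and 3 in muscle. RefSeq (assembly ARS-UCD2.0) gives CYP3A4 and CYP3A5 as older names of CYP3A28, CYP3A74 and CYP3A76, which lie beside each other and beside CYP3A24, so reads with several alignments may be shared among these rows.

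The first CYP4F2 row and CYP4V2 lay far below intestine in P10 organoids. CYP4F enzymes hydroxylate fatty acids, leukotrienes and vitamin K at the end of their chains. The first CYP4F2 row had 2929 reads in intestine, 104 at P5, 32 at P10 and 3 in muscle, and was 24.1-fold below intestine at P5 (-4.59, -4.85 to -4.32) and 79.7-fold at P10 (-6.32, -6.76 to -5.92). In intestine it was the CYP row with most reads, 14.9% of the family. The second CYP4F2 row had 1837, 598, 415 and 0 reads in the same order, with differences of -1.48 at P5 and -2.49 at P10. CYP4V2, another fatty acid hydroxylase, had 378 reads in intestine, 21 in P5 organoids, 0 at P10 and 60 in muscle, which is at least 43.4-fold below intestine at P10 (-5.44, and -6.51 to -6.67 with the other scalings). CYP4A11, a fatty acid hydroxylase known as a target of the receptor PPARA, had 151 reads in P5 organoids and 0 in each of the other libraries, at least 79.1-fold above intestine (6.31, and 5.40 with TMM).

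CYP2C was the CYP subfamily with most reads in both organoid libraries. They metabolise many drugs and also arachidonic acid, and CYP2C18 and CYP2C87 (CYP2C90 and CYP2C87 in RefSeq) are neighbours in the genome. CYP2C18 had 4210 reads at P5, 1295 at P10, 996 in intestine and 3 in muscle, a difference from intestine of 2.29 (2.18 to 2.40) at P5 and of 0.10 (-0.02 to 0.23) at P10. CYP2C87 had 4723, 1510, 2566 and 14 reads in the same order, at 1.09 from intestine at P5 and -1.05 at P10, where scaling by library totals gave -0.76 and so less than 2-fold. CYP2C19 was the weakest of the CYP2C rows, with at most 21 reads. Together the CYP2C rows made up 18.2% of the CYP reads in intestine, 64.5% at P5, 50.5% (49.2 to 51.8) at P10 and 3.98% in muscle. This share does not depend on how libraries are scaled, but reads with several alignments may be shared among these rows or with neighbouring CYP2C genes. For 1 CYP2C87 read there were 0.768 CYP3A4 reads in intestine (0.724 to 0.814), 0.196 at P5 (0.182 to 0.210) and 0.106 at P10 (0.0895 to 0.125).

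The other CYP2 rows took both directions. CYP2J2, an epoxygenase of arachidonic acid, had 2770 reads in intestine, 1022 in P5, 312 in P10 and 21 in muscle, at -1.31 from intestine at P5 and -3.48 at P10. CYP2U1, a fatty acid hydroxylase, had 2388, 702, 834 and 20 reads, at -1.61 and -1.82, with no such step between the passages. CYP2D14, of the subfamily that oxidises many basic drugs, had 313, 84, 25 and 31 reads, at -1.48 and -3.21. CYP2S1, a P450 of epithelia outside the liver, was 1.44 above intestine at P5 with 556 reads against 253, and at 0.06 (-0.21 to 0.32) at P10 with 293. CYP2R1, the vitamin D hydroxylase, had 48 reads in intestine, 74 in P5, 90 in P10 and 77 in muscle, and its 1.58 and 1.46 above intestine came under 1 with TMM (0.82 and 0.65). CYP2B6, known as a target of the receptor NR1I3, had 181 reads in P5 organoids, 10 in intestine, 1 in P10 organoids and 0 in muscle. It was 5.23 (4.24 to 6.14) above intestine at P5, where the other scalings gave 4.24 to 4.42, and CYP2B6 and CYP4A11 were the rows furthest above intestine at P5 with no more than 1 read at P10.

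The CYP1 rows, classical targets of the aryl hydrocarbon receptor AHR, took opposite directions. CYP1A1, which oxidises polycyclic aromatic hydrocarbons, had 1561 reads in intestine, 305 at P5, 451 at P10 and 3 in muscle, at -2.16 from intestine at P5 and -2.12 (-2.28 to -1.96) at P10. CYP1B1, its relative outside the liver, had 0 reads in intestine and muscle, 14 in P5 and 56 in P10 organoids, which is at least 9.25-fold above intestine at P5 and at least 26.0-fold at P10. On the log2 scale these bounds were 3.21 and 4.70, and 2.06 and 3.54 with TMM. TIPARP, another target of AHR, had 81 reads in intestine, 288 in P5 and 358 in P10 organoids (2.57 and 2.37), and NQO1, a quinone reductase that is also a target of NFE2L2, had 755, 5119 and 4804 (log2 difference 2.51 at P10). AHRR, the repressor of AHR, had 11 reads in intestine and 1 in each organoid library. The heat map of reads shows these rows beside the others of the 4 families.

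**Figure D3:**
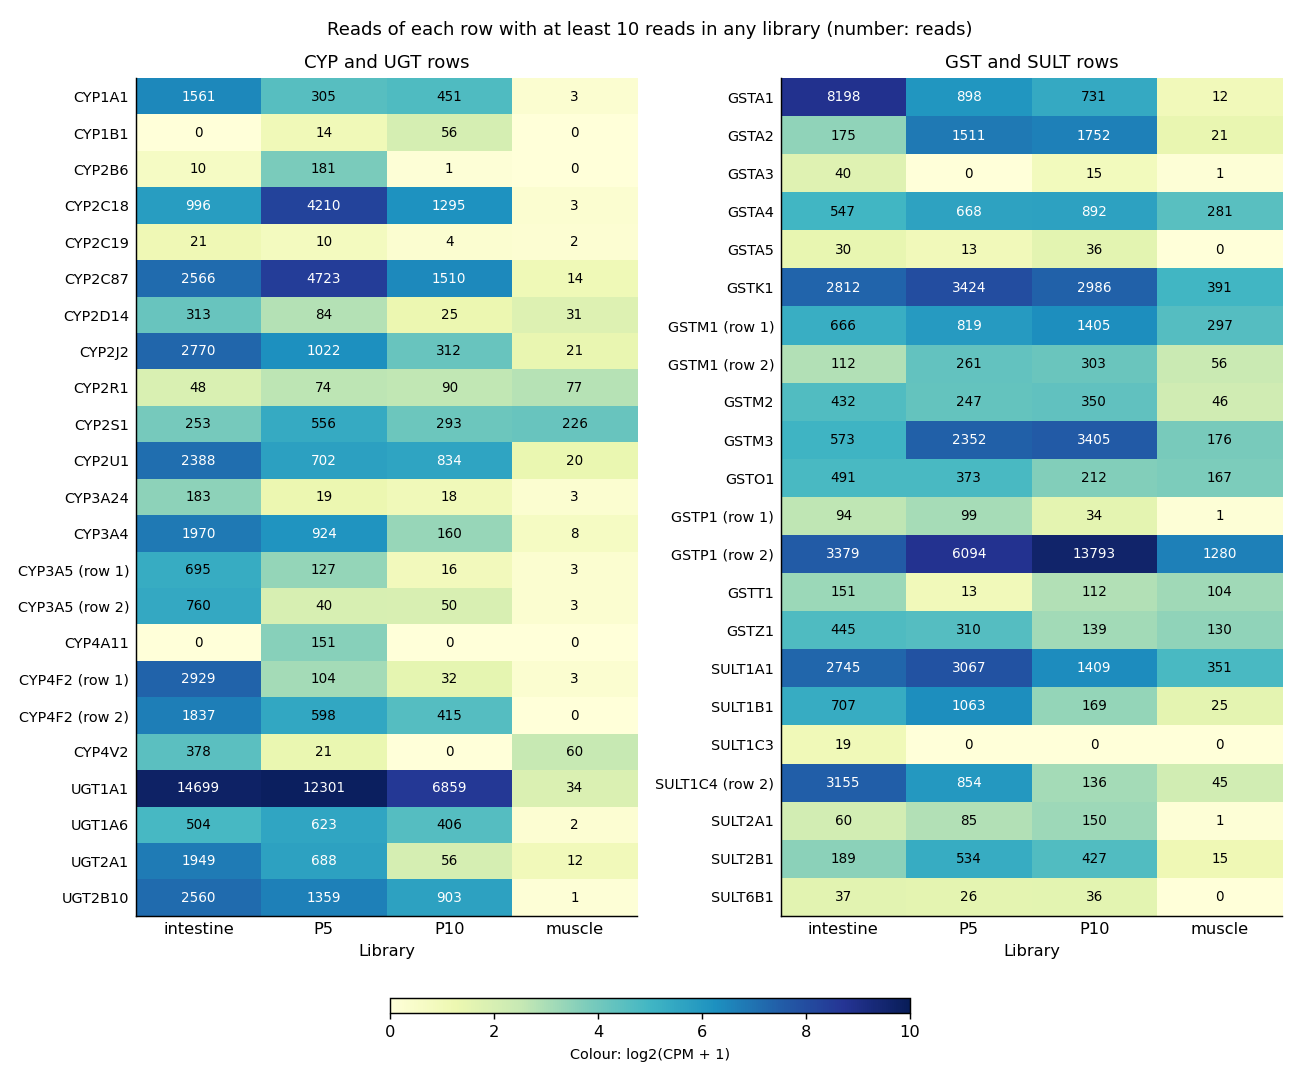
Reads (printed in each cell) of the 45 rows with at least 10 reads in any library, in intestine, P5 organoids, P10 organoids and muscle, with colour for log2(CPM + 1). CYP4A11 has reads at P5 alone, and every CYP and UGT row except CYP2S1 has under 100 reads in muscle.

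The row of UGT1A1, which conjugates bilirubin, carried most of the UGT reads in every library. It had 14699 reads in intestine, 12301 at P5, 6859 at P10 and 34 in muscle, or 74.6%, 82.2%, 83.4% and 69.4% of the family. It was at 0.11 from intestine at P5 and -1.28 (-1.32 to -1.23) at P10. UGT1A6, which acts on small phenols, had 504, 623, 406 and 2 reads. RefSeq shows both genes overlapping, and the UGT1A genes are known to share their last exons, so 3′ reads of one cannot be told from the other with certainty. The UGT1A1 row may therefore include reads of other UGT1A genes, and these rows may not be separate measures. UGT1A6 lay at 0.52 from intestine at P5 and -0.58 at P10.

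UGT2A1 had the largest difference of the UGT rows. This enzyme, first known from the nose, had 1949 reads in intestine, 688 at P5, 56 at P10 and 12 in muscle, a difference of -1.35 (-1.48 to -1.23) at P5 and of -5.05 (-5.37 to -4.75) at P10. Its share of the UGT reads was 9.89% in intestine, 4.59% at P5 and 0.681% at P10. UGT2B10, which conjugates amines, had 2560, 1359, 903 and 1 reads and lay at -0.77 and -1.81. All 4 UGT rows with 10 reads were at least 2-fold lower in P10 than in P5 organoids, between -1.04 and -3.70 on the log2 scale, while UGT1A6 and UGT2B10 (-0.97) came just under 2-fold with scaling by library totals.

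In the GST family, neighbouring alpha-class genes took opposite directions. GSTA1, an alpha-class enzyme that also reduces lipid peroxides, had 8198 reads in intestine, 898 at P5, 731 at P10 and 12 in muscle. It was 8.27-fold below intestine at P5 (-3.05, -3.14 to -2.95) and 14.0-fold at P10 (-3.81, -3.92 to -3.70). GSTA2, its neighbour in the genome, had 175, 1511, 1752 and 21 reads, 11.2-fold above intestine at P5 (3.49, 3.23 to 3.77) and 9.76-fold at P10 (3.29, 3.03 to 3.56). For each GSTA2 read there were 46.8 GSTA1 reads in intestine (40.3 to 54.7), 0.594 at P5 (0.547 to 0.646) and 0.417 at P10 (0.382 to 0.455). Both directions held under all 4 other scalings. Reads with several alignments were counted and may be shared between these neighbours, which the intervals leave out. GSTA5 and GSTA3, also of this cluster, had at most 40 reads in any library, and GSTA4, which acts on products of lipid peroxidation, differed from intestine by only 0.49 and 0.45.

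The pi class took the largest share of GST reads in organoids. The second GSTP1 row had 3379 reads in intestine, 6094 at P5, 13793 at P10 and 1280 in muscle, 1.01 (0.93 to 1.08) above intestine at P5 and 1.77 (1.71 to 1.83) at P10. Its share of the GST reads was 18.6% in intestine, 35.7% at P5, 52.7% at P10 and 43.1% in muscle. The share of GSTA1 was 45.2%, 5.25%, 2.79% and 0.404% in the same order. The first GSTP1 row had only 94, 99, 34 and 1 reads, and RefSeq lists a gene once under this name, LOC281806, beside GSTP1.

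As a sum, the mu class was also higher in organoids. GSTM3 had 573 reads in intestine, 2352 in P5, 3405 in P10 and 176 in muscle, 2.25 (2.12 to 2.39) above intestine at P5 and 2.40 (2.27 to 2.54) at P10. The 4 GSTM rows together were 2.70-fold above intestine (2.55 to 2.86) at P5 and 3.07-fold (2.91 to 3.24) at P10. GSTM1 has 2 rows, of 666, 819, 1405 and 297 reads and of 112, 261, 303 and 56 reads in intestine, P5, P10 and muscle. The second was 1.84 above intestine at P5 and 1.55 at P10, the first 0.49 and 0.81, and GSTM2 lay at -0.53 and -0.54. The GSTM genes are close copies of each other, so their reads may be divided wrongly among rows.

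Of the other GST classes, GSTK1, of mitochondria and peroxisomes, had 2812 reads in intestine, 3424 in P5, 2986 in P10 and 391 in muscle and stayed within 2-fold (0.46 and -0.17). GSTO1 (491, 373, 212 and 167 reads) and GSTZ1, an enzyme of tyrosine breakdown (445, 310, 139 and 130 reads), lay near intestine at P5 (-0.16 and -0.25) and below it at P10 (-1.42 and -1.80). GSTT1, of the class that acts on small halogenated compounds, had 151 reads in intestine, 13 in P5, 112 in P10 and 104 in muscle. The P5 library alone was low, at -2.67 (-3.66 to -1.87) from intestine.

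**Figure D4:**
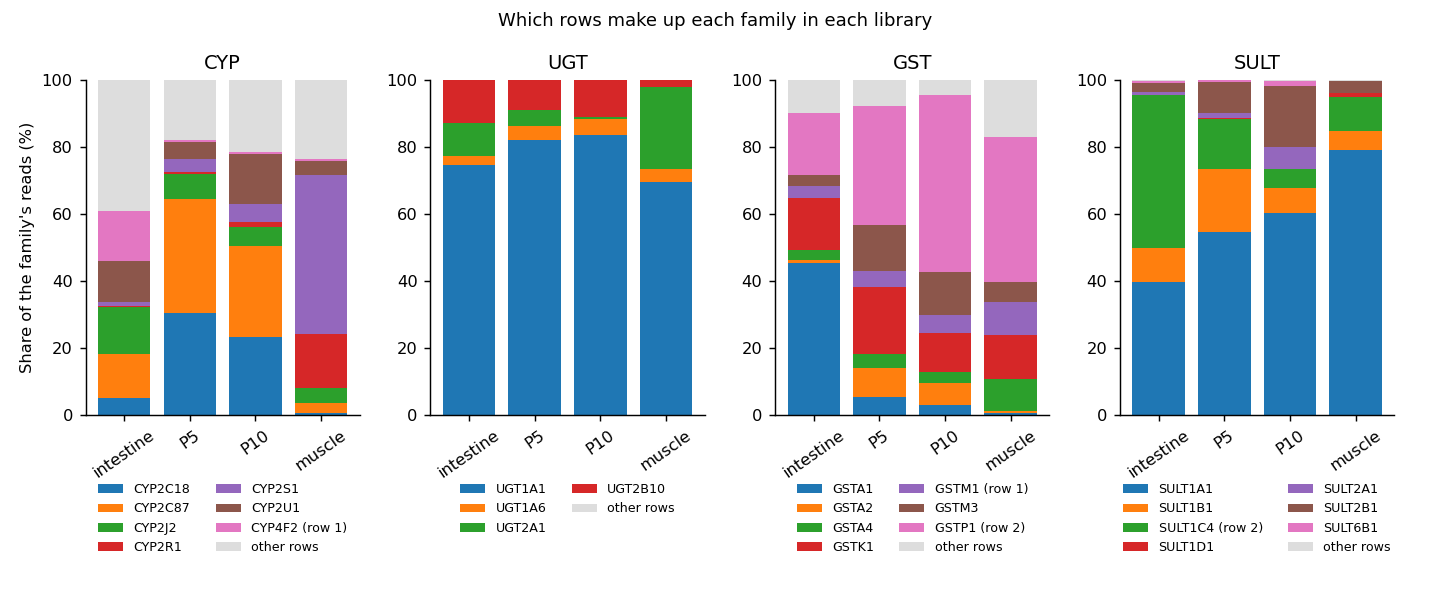
Share (%) of each family's reads that fell on its leading rows, as stacked bars for intestine, P5 organoids, P10 organoids and muscle. GSTA1 takes 45.2% of GST reads in intestine and 2.79% at P10, GSTP1 (row 2) goes from 18.6% to 52.7%, and the UGT1A1 row leads the UGT reads in every library.

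A row named SULT1C4 led the SULT reads in intestine and SULT1A1 in the other libraries. The second SULT1C4 row had 3155 reads in intestine, 854 at P5, 136 at P10 and 45 in muscle, with differences from intestine of -1.78 (-1.89 to -1.68) and -4.77 (-4.98 to -4.56). It held 45.6% of the SULT reads in intestine, 15.1% at P5 and 5.83% at P10. SULT1A1, which sulfates phenols, had 2745, 3067, 1409 and 351 reads, at 0.31 and -1.27, and held 39.7%, 54.4% and 60.4%. SULT1C4 has another row with at most 3 reads, and the RefSeq gene of SULT1A1 overlaps BOLA2B. RefSeq has a current SULT1C4 and also gives this name, and SULT1C2, as older names of LOC783020, which lies beside SULT1C2. Which gene each SULT1C4 row stands for is therefore not known.

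SULT1B1, which sulfates phenols and thyroid hormones, had 1063 reads at P5, 169 at P10, 707 in intestine and 25 in muscle, at 0.77 from intestine at P5 and -2.26 at P10. In the genome it lies between UGT2A1 and SULT1D1, and SULT1D1 and the next gene SULT1E1, an estrogen sulfotransferase, had at most 5 reads in any library. The SULT2 rows lay above intestine at both passages. SULT2B1, which sulfates cholesterol and pregnenolone, had 189 reads in intestine, 534 in P5, 427 in P10 and 15 in muscle, 1.87 (1.60 to 2.14) above intestine at P5 and 1.06 (0.79 to 1.35) at P10. SULT2A1, which sulfates bile acids and steroids, had 60, 85, 150 and 1 reads, at 1.43 (0.91 to 1.91) and 1.73 (1.25 to 2.17). The P5 value was under 1 with the other scalings (0.71 to 0.89), as was SULT2B1 at P10 with TMM (0.93). SULT6B1 and SULT1C3 had at most 37 and 19 reads.

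From P5 to P10, 4 of 44 compared rows were at least 2-fold higher and 22 at least 2-fold lower, against 16.1% and 15.5% of 16131 rows, with a median of -0.91 against 0.06. By family, lower were 12 of 19 CYP, 4 of 4 UGT, 3 of 15 GST and 3 of 6 SULT rows. The largest differences were those of CYP2B6 (at least 25.9-fold lower, 1 read against 181), CYP4A11 (at least 21.8-fold, 0 against 151), UGT2A1 (13.0-fold), SULT1B1 (8.21-fold) and the second SULT1C4 row (7.95-fold). The 4 higher rows were GSTT1 (2.39, 112 reads against 13), GSTA3 (at least 2.12, 15 against 0), CYP1B1 (1.49, 56 against 14) and GSTA5 (1.09, 36 against 13), which came under 2-fold with TMM (0.96). The second GSTP1 row was 0.76 higher (0.70 to 0.83), and CYP1A1, CYP3A24, CYP2U1, GSTA2, GSTM3 and the second CYP3A5 row lay between -0.23 and 0.15. Age of the culture, the individual preparation and the library cannot be told apart between these 2 libraries.

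Muscle was the study's tissue without intestinal epithelium. Of 43 compared rows, 28 were at least 2-fold higher in intestine and 4 at least 2-fold lower, against 26.7% and 27.0% of 17559 rows. The largest were CYP4F2 (row 1, at least 314-fold), UGT2B10 (at least 266-fold), GSTA1 (255-fold), CYP4F2 (row 2, at least 192-fold) and CYP1A1 (at least 162-fold). Pooled enterocyte markers gave 0.171% as many reads in muscle as in intestine, though 1 of these 11 markers was at least 2-fold lower in intestine than in muscle. GSTA1 (0.146%), CYP1A1 (0.192%) and UGT1A1 (0.231%) were near that level. Whether the few muscle reads of such rows came from muscle cells was not tested. The 4 rows higher in muscle were CYP2R1 (intestine minus muscle -2.95), CYP2S1 (-1.47), GSTT1 (-1.36) and the second GSTM1 row (-1.10), and only CYP2R1 kept this under all scalings, while GSTT1 and GSTM1 changed sign with scaling by library totals. Under the scalings the median of all compared rows moved by 0.17 to 1.30 in this comparison. CYP2S1 held 47.4% of the muscle CYP reads and the second GSTP1 row 43.1% of the muscle GST reads.

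The partners of the enzymes were followed with lists of fixed genes. Of all compared rows, 24.9% were at least 2-fold higher and 20.4% lower than intestine at P5, and 28.0% and 21.6% at P10. These shares are the background for every partner list, efflux transporters included. Of 12 receptors and regulators, 2 were at least 2-fold higher and 1 lower than intestine at P5, and 3 and 2 at P10. NR1I2 (PXR), the sensor that induces CYP3A, had 779 reads in intestine, 637 in P5, 677 in P10 and 0 in muscle, at -0.11 (-0.27 to 0.05) and -0.49 (-0.65 to -0.34). AHR had 115, 139, 132 and 16 reads, and NR1I3 634, 339, 477 and 177, both within 2-fold. PPARA was lower (1010, 361 and 434 reads in intestine, P5 and P10, at -1.30 and -1.53). HNF4A, a regulator of many hepatic and intestinal enzymes, was at 0.96 and 1.10. CDX2, an intestinal identity factor, was at 6.36 and 3.41 with 4 reads in intestine, 199 in P5 and 24 in P10. Its intestine count lay just above the floor of 3 reads, so the size of the CDX2 differences depends on the normalisation.

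Electrons reach all these P450 from POR, which had 849 reads in intestine, 393 in P5, 295 in P10 and 66 in muscle, at -0.91 and -1.80. Of the 4 electron transfer partners 1 was higher at P5 (CYB5B) and 0 lower, and 1 was higher and 2 lower at P10. Of 4 genes of UDP-glucuronic acid supply to UGT, 0 were higher, with 1 lower at P5 (SLC35D1, at -1.25) and 2 at P10 (SLC35D1 at -2.40 and UGDH, which makes the sugar donor, at -2.04). Of 5 genes of glutathione supply to GST, 4 were at least 2-fold higher at P5 and 3 at P10, and none lower, with GSR, which regenerates glutathione, at 358 reads in intestine, 2995 in P5 and 4948 in P10 (3.33 and 3.69). Of 4 genes for PAPS, the sulfate donor of SULT, 2 were higher at each passage (SLC35B2 and SLC35B3) and PAPSS2 was lower at P10 (-1.03).

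The efflux transporters took both directions. ABCC2, the apical exporter of conjugates, had 3583 reads in intestine, 198 in P5, 72 in P10 and 13 in muscle, at -4.01 and -5.70. ABCC3, the basolateral exporter, had 321, 1824, 2047 and 24 reads, at 2.77 and 2.53, and ABCC5 was at 3.50 and 4.06. ABCB1 (P-glycoprotein) had 1483 reads in intestine, 4768 in P5 and 938 in P10, at 1.89 and -0.97. Of the 6 transporters with a row, 3 were higher and 1 lower at P5, and 2 and 2 at P10, with ABCG2 at -1.56.

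**Figure D5:**
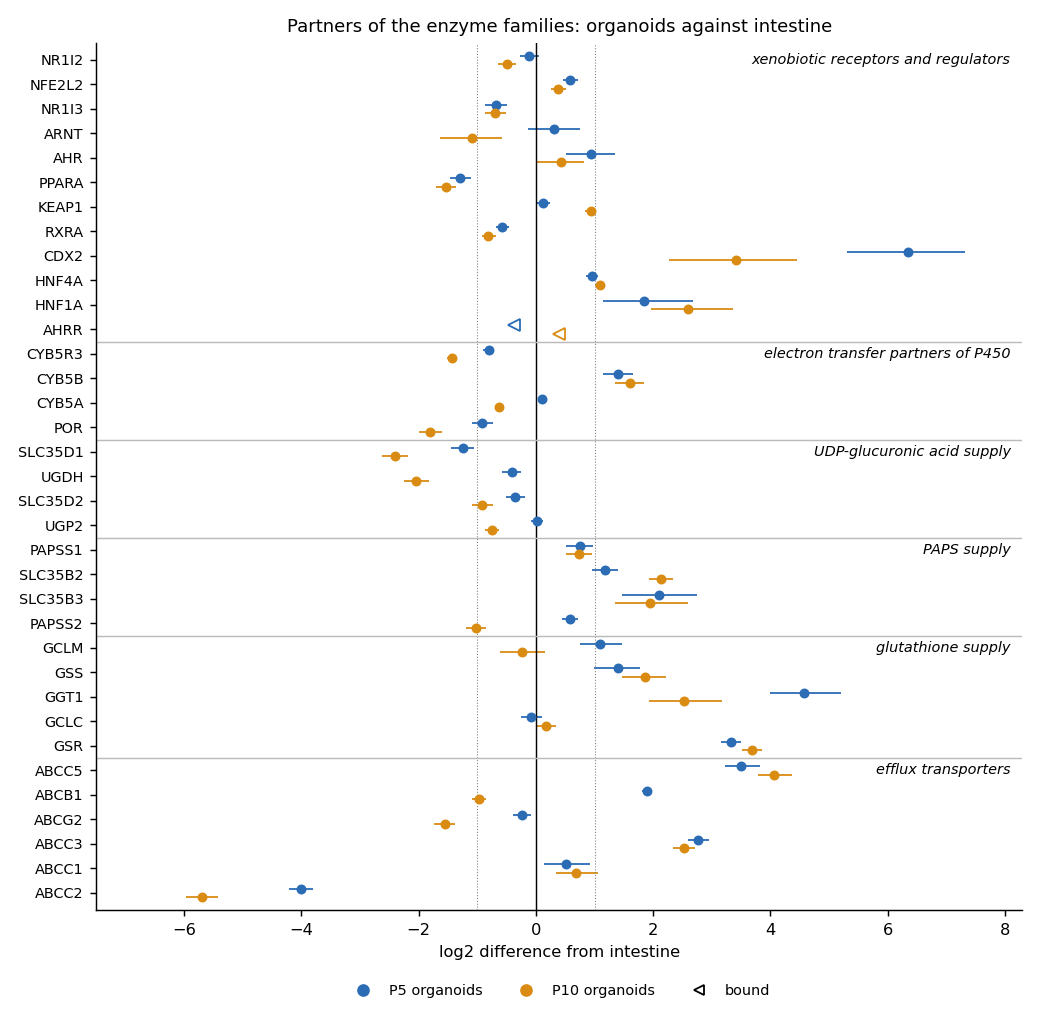
Log2 difference from intestine (horizontal axis) of receptors, electron transfer partners, cofactor supply genes and efflux transporters in P5 (blue) and P10 organoids (orange), with 95% counting intervals, open triangles for bounds and dotted lines at 2-fold. ABCC2 lies furthest left, GSR, ABCC3 and ABCC5 lie right of 2 at both passages, and NR1I2 lies near 0.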

How the data were processed

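The authors aligned single-end QuantSeq reads with Bowtie2 to the genome or representative transcripts, counted unique and multiple alignments with Bedtools, and deposited raw counts of reads per gene for each of 4 libraries. The build and annotation are not given in the sources used here. Members and gene lists were chosen with earlier results of these data known. The 22200 rows with at least 1 read were quantile-normalised, as the study names, and compared as log2(value + 1) with a floor of 3 reads, a minimum of 10 reads in the higher library and a 2-fold threshold. Intervals are exact Poisson limits carried through the normalisation, Wilson limits for shares and CPM, and exact conditional limits for ratios of reads. Scripts were tested on simulated data. In full were named the 5 members of each family with most CPM and, per comparison, the 5 largest and 5 smallest differences with at least 50 reads. Symbols were matched to the RefSeq table of ARS-UCD2.0, where 45 of 53 were current, 6 were older names and 2 (CYP2J2 and SULT6B1) were not found. 11 alternatives were planned and 1 was added after seeing the data. No p-value was computed, since each group has 1 library. Sequences were not analysed here, and 1 gene of the partner lists is not reported here. TMM and upper-quartile factors came from edgeR 4.0.16 in R 4.3.3, the normalisation was checked against limma 3.58.1, and all else was computed in Python 3.11.15 with scipy 1.17.1.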

Additional observations from a re-analysis of the deposited data

Results flagged for a closer look

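7 rows lay on opposite sides of intestine in P5 and P10 organoids with counting intervals that left out 0 at both passages, both set against the same intestine library. The difference between passages was not tested, since each has 1 library. CYP2C87 was at 1.09 in P5 and -1.05 in P10 organoids, SULT1B1 at 0.77 and -2.26, SULT1A1 at 0.31 and -1.27, and UGT1A1 at 0.11 and -1.28, all as log2 differences of quantile-normalised counts. UGT1A6 was at 0.52 and -0.58, GSTK1 at 0.46 and -0.17, and the first GSTP1 row at 0.84 and -0.74, with 99 reads in P5 and 34 in P10 organoids. With TMM scaling, UGT1A1 was at -0.04 in P5 organoids and so on the same side at both passages, and GSTK1 was at 0.09 in P10 organoids with library totals.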

How the results depend on the processing

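No paired analysis was possible because each group has 1 library, and for the same reason no library could be left out. Of 94 counts of members under the alternatives, 84 stayed within 1.5 times the reported count and 10 did not. Rows at least 2-fold lower in intestine than in muscle numbered 4, and 1 with library totals, 1 with library totals without RN18S1, 2 with TMM and 10 with no minimum of reads. Rows higher in P10 organoids than in intestine numbered 9, and 17 with no minimum of reads, where 36.1% of all 20550 rows were higher. Rows higher in P10 than in P5 organoids numbered 4, and 2 with at least 50 reads. Taken from the median difference of the epithelial markers, a choice made after seeing the data, 2 rows were higher and 36 lower than intestine at P5, and 2 and 37 at P10, while 83.2% and 74.9% of all compared rows were then lower. Of 1912 values of single rows, 1640 stayed within the counting interval, 268 moved out of it and 4 that were at least 2-fold changed sign. Values under 2-fold that changed sign, such as GSTA5 at P5 (0.04, and -0.94 with TMM) and SULT6B1 at P5 (0.67, and -0.28), are counted by the interval alone. The 4 were the first GSTP1 row between passages (0.71 with rows summed by symbol, which joins it to the second), the second GSTM1 row against muscle (0.53 with library totals, 0.21 without RN18S1) and GSTT1 against muscle (0.077 with library totals). Other causes of these changes were not tested. TMM and the upper quartile moved the median of all rows by -0.30 and -0.31 for P10 organoids against intestine, and by -0.19 and -0.16 for P5 organoids, where 18.1% of all rows were then higher and 26.7% lower with TMM. A single read was worth 0.32 on the log2 scale in intestine, 0.81 at P5 and 2.09 at P10 and in muscle, so differences of rows with few reads depend on the normalisation, as for CYP2C19 (0.18 at P5, and -0.64 with library totals).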

Other observations

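Other enzymes of drug metabolism, outside the 4 families, took both directions. Of 12 other phase I genes with enough reads, 1 was at least 2-fold higher and 6 lower than intestine at P5, and 1 and 5 at P10. Of all compared rows, 24.9% were higher and 20.4% lower at P5, and 28.0% and 21.6% at P10, which is the background for each list here. CES2, a carboxylesterase that cleaves ester drugs, had 8483 reads in intestine, 2254 in P5, 993 in P10 and 64 in muscle, at -1.73 and -3.40. CES3 had 517, 10, 24 and 0 reads, at -5.08 and -4.05. EPHX1, the microsomal epoxide hydrolase, had 5187, 537, 1379 and 78 reads, at -3.15 and -2.24, and so was lower at P5 than at P10. NQO1 was the higher gene of this list at both passages.

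Of 6 other phase II genes, 1 was higher (TPMT, a thiopurine methyltransferase, at 1.04) and 1 lower at P5, and 0 higher and 2 lower at P10. Of 5 AHR targets with enough reads, 3 were higher and 1 (CYP1A1) lower at each passage. Of 5 hepatocyte markers with reads, 1 was higher and 3 lower at P5, and 2 and 3 at P10, and ALB had at most 12 reads in any library.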
